A study of Mus musculus with 12 samples.

Results

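The growth hormone and insulin-like growth factor (IGF) axis was followed in mouse liver through 8 genes named for their place in this pathway: Ghr, Igf1, Igfals, Igfbp2, Igfbp4, Socs2, Cish and Bcl6. Each was found by its symbol among the 38926 gene symbols of the count tables, and all 8 had enough reads to be among the 14488 genes tested. Poly(A) RNA was sequenced from livers of male mice aged 12 weeks on a mixed 129Ola/C57BL6 background, kept in 12 h of light and 12 h of dark with free access to food. The 4 groups were wild-type mice and Rev-erbα-/- mice at zeitgeber time 8 (ZT8, 8 h after lights on, in the rest phase) and at ZT20 (in the active phase), with 3 libraries each. The Rev-erbα-/- mice are knockouts of Nr1d1, which encodes the circadian repressor REV-ERBα. They came from heterozygous parents, and carry the deletion in all tissues, pituitary and brain included. The labels number the libraries as replicates without naming animals, so that p-values measure the spread between these libraries.

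Growth hormone leaves the pituitary in pulses and binds its receptor GHR on hepatocytes, where the kinase JAK2 and the transcription factor STAT5 carry the signal. STAT5 drives Igf1, the growth factor that liver releases into blood, and Igfals, whose product (the acid-labile subunit) holds IGF1 in a long-lived circulating complex. IGF binding proteins such as IGFBP2 and IGFBP4 bind IGF1 and limit its access to its receptor. Socs2 and Cish encode feedback inhibitors that STAT5 induces within minutes of a pulse, and Bcl6 encodes a repressor that competes with STAT5 at its sites and that growth hormone represses.

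The letters that these factors recognise were looked for in the promoters of the genes, shown here because the members are grouped by STAT5 and because REV-ERBα binds AGGTCA behind an AT-rich flank. RefSeq promoter windows (250 bases before to 50 after the start, GRCm38.p6) matched 7 of the 8 genes with 12 windows. Socs2 is named without a sequence. TTCNNNGAA, the STAT5 motif, was searched on both strands and stood in 5 of the 12 windows (Cish, both of Bcl6 and 2 of Igfals), against 8.3% of 32851 windows of this length. AGGTCA stood in 3 of the 12 (Igf1 and 2 of Igfals), against 16.3%, and CACGTG, the E-box of the clock activators, in 2 (Igfbp2 and Bcl6), against 7.15%. None of these motifs overlapped another in the stretches below, in which capitals mark the STAT5 motif and AGGTCA. The flank was not part of the search, so a match to AGGTCA is not a full REV-ERBα motif. AGGTCA reads TGACCT where it lies on the other strand.
Cish, chr9:107296654-107296683, plus strand: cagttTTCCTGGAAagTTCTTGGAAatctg
Bcl6, the second window, chr16:23981333-23981481, minus strand: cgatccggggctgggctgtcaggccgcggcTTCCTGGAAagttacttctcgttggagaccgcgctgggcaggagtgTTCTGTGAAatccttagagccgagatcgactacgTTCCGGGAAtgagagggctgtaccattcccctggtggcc
Igfals, the second window, chr17:24878143-24878246, plus strand: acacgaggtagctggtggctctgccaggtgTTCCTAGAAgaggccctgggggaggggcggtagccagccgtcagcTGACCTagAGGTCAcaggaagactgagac
Igf1, chr10:87860938-87860967, plus strand: ctcagggaagagAGGTCAgctgcctagagc
The 2 Cish matches begin 0 and 11 bases after the annotated start, and the 3 of Bcl6 begin 168, 122 and 88 bases before it. In Igfals the STAT5 motif begins 58 bases before the start and the AGGTCA pair 13 and 5 bases before it, and in Igf1 the match begins 161 bases before it. A match describes letters and not binding, which was not measured in these libraries.

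Between 17641809 and 26060192 reads per library were counted on genes, so that 3 reads correspond to 0.115 to 0.170 per 1000000 before scaling. Levels are given as CPM (reads of a gene per 1000000 reads of the library, whose size was scaled by TMM). In wild-type liver at ZT8 Nr1d1 had 128.7, 96.2 and 75.3 CPM, and Rev-erbα-/- liver had 63.0, 71.9 and 80.6 (log2 −0.48, adjusted p = 0.143, edgeR). Reads were thus still assigned to the targeted gene, and a total per symbol leaves their exon unknown. In livers of this knockout the authors reported no Rev-erbα mRNA by quantitative real-time PCR and no REV-ERBα protein by immunohistochemistry. Arntl (Bmal1), which REV-ERBα represses, separated the genotypes at ZT8, with 0.448 to 0.796 CPM in wild-type and 22.7 to 25.7 in Rev-erbα-/-. Wild-type replicates 2 and 3 at ZT8 stood apart in acute-phase genes. Fits without both of them keep replicate 1 as the only wild-type library at ZT8. The wild-type levels of Saa1 were 60.8, 4972 and 6489 CPM, against 29.0 to 37.8 in Rev-erbα-/-, and those of Orm2 were 9.51, 312.8 and 424.9 against 6.80 to 7.33. Of the 16 acute-phase genes listed, 7 were lower in Rev-erbα-/- at ZT8, against 4.04% of all tested genes. With 1 library left out at a time, each of these calls held in 1 to 7 of 12 fits. At ZT20 none was called by edgeR, against 3.63% of all tested genes, or by DESeq2, and 0 had an unadjusted p under 0.05. The defining hepatocyte markers were present in all 12 libraries, and the pancreas and fat markers summed to at most 0.179 CPM. In RNA from whole tissue, fewer cells of a type cannot be told apart from less RNA per cell.

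Per kilobase of exon, the mean levels in wild-type liver at ZT8 fell into 2 classes. Igfbp4 was highest at 428.4 CPM per kb, followed by Igfbp2 at 116.0, Ghr at 74.2, Igf1 at 71.4 and Igfals at 40.9. Bcl6 was at 10.0, Cish at 4.88 and Socs2 at 3.38. Ghr (66.8 to 84.7) and Igf1 (68.4 to 74.3) overlapped in these libraries, as did Bcl6, Cish and Socs2 with each other, whereas Igfbp4, Igfbp2 and Igfals each lay clear of their neighbours. In Rev-erbα-/- liver at ZT8, Igf1 lay above Ghr on average, with 88.9 to 110.4 CPM per kb against 76.0 to 90.3, ranges that overlap, and Socs2 (3.28) lay above Cish (2.36). At ZT20, Igf1 lay above Ghr in both genotypes, with overlap in wild-type (78.7 to 82.5 against 74.6 to 79.6) and without it in Rev-erbα-/- (82.6 to 88.9 against 75.8 to 78.8). In wild-type at ZT20, Socs2 (0.835 to 1.12) lay above Cish (0.53 to 0.645), and in Rev-erbα-/- Cish (0.873 to 2.63) lay above Socs2 (0.471 to 0.681). The spread between libraries divided the genes in the same way. The highest library was 1.35 times the lowest for Ghr, 1.54 for Igfbp4, 1.61 for Igf1, 1.76 for Igfals and 2.77 for Igfbp2, against 7.92 for Bcl6, 12.9 for Socs2 and 15.7 for Cish. The standard error of the genotype effect at ZT8 was 0.65 for Socs2, 0.82 for Bcl6 and 0.85 for Cish on the log2 scale, where the median of all tested genes was 0.13, and it was larger than that of 98.2% (Socs2) or 99.4% (Bcl6, Cish) of them.

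**Figure D1:**
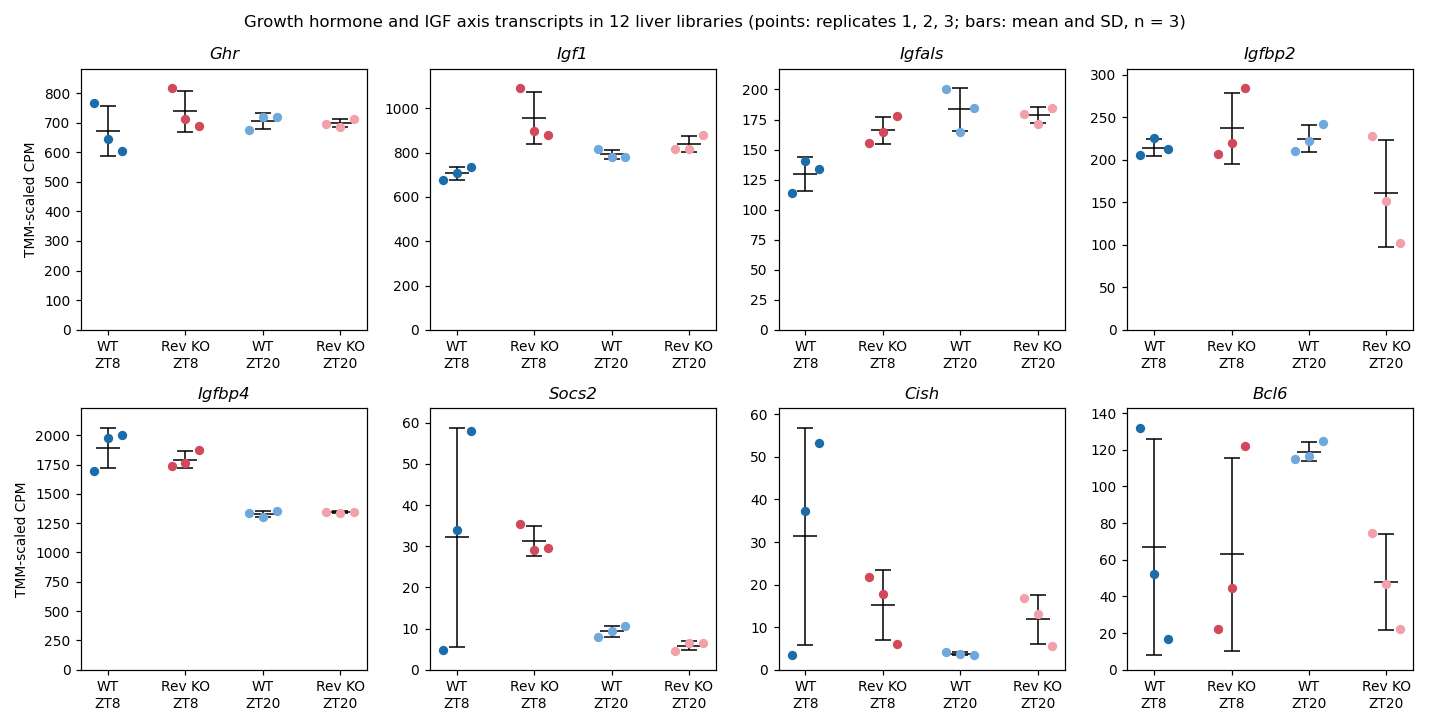
TMM-scaled CPM (vertical axes, from 0) of the 8 transcripts in the 4 groups. Points are replicates 1 to 3 from left to right, bars are mean and SD (n = 3); Igf1 at ZT8 runs from 678 to 736 in wild-type and from 881 to 1093 in Rev-erbα-/-, whereas Cish, Socs2 and Bcl6 differ 7.92 to 15.6 times among the wild-type ZT8 libraries and 1.09 to 1.34 times among the wild-type ZT20 libraries.

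The comparison at ZT8 asked which transcripts change when REV-ERBα is missing at the time of its high expression. Igf1 and Igfals were higher in Rev-erbα-/- liver, and the other 6 members were not called. These 2 of 8 members stand against 8.45% of all tested genes called at ZT8 (4.4% higher and 4.04% lower), and the median log2 fold change was 0.05 over the members and 0.00 over all genes. The hepatocyte markers moved as well: their median log2 fold change at ZT8 was 0.35, with Apoa1 at 0.43, Ttr at 0.43, Cps1 at 0.42, Hnf4a at 0.35, Alb at 0.23, Serpina1a at −0.26 and Tat at −0.33. Of these 7, edgeR called Hnf4a (adjusted p = 0.0366), DESeq2 called 4, and 5 had an unadjusted p under 0.05. Their summed level, most of it Alb, was 50515 to 72363 CPM in wild-type libraries and 59924 to 86139 in Rev-erbα-/- libraries, and the markers' part in the differences of Igf1 and Igfals was not tested.

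Igf1 (chromosome 10 of mm10, 87858265 to 87937042) was at 678, 707 and 736 CPM in wild-type against 1093, 898 and 881 in Rev-erbα-/- at ZT8. All 3 Rev-erbα-/- libraries lay above all 3 wild-type libraries. The difference was 1.35-fold (log2 0.44, SE 0.10, adjusted p = 0.0114, edgeR's quasi-likelihood test). It lost the call without wild-type replicate 2 (adjusted p = 0.0553), without both libraries high in acute-phase genes (0.49, adjusted p = 0.0842) and with only the 6 ZT8 libraries fitted (adjusted p = 0.0592). At ZT20, Igf1 was at 817, 782 and 779 CPM in wild-type against 818, 818 and 881 in Rev-erbα-/-. The groups lay next to each other and the log2 fold change was 0.08 (95% interval −0.12 to 0.29, adjusted p = 0.792).

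Igfals (chromosome 17, 24865997 to 24882010), which encodes the acid-labile subunit, was at 114, 141 and 134 CPM in wild-type against 155, 165 and 178 in Rev-erbα-/- at ZT8. The groups did not overlap. The difference was 1.28-fold (log2 0.36, SE 0.09, adjusted p = 0.0274). It was not called without wild-type replicate 1 (adjusted p = 0.0677) or 3 (0.0506), without Rev-erbα-/- replicate 2 (0.0807) or 3 (0.0791), or with only the ZT8 libraries fitted (0.0682). Without both acute-phase libraries the log2 fold change was 0.54, from a fit that kept only wild-type replicate 1 at ZT8, the library lowest in Igfals. At ZT20 the values were 201, 165 and 184 CPM in wild-type against 180, 172 and 185 in Rev-erbα-/-. These overlapped (log2 −0.04, 95% interval −0.24 to 0.16, adjusted p = 0.914).

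The receptor itself did not separate the groups. Ghr (chromosome 15, 3317760 to 3583492) was at 767, 645 and 605 CPM in wild-type against 817, 711 and 688 in Rev-erbα-/- at ZT8, and at 676, 720 and 720 against 697, 686 and 713 at ZT20. The ranges overlapped at both times. The log2 fold change was 0.14 at ZT8 (95% interval −0.08 to 0.35, adjusted p = 0.459) and −0.01 at ZT20 (−0.23 to 0.20, adjusted p = 0.976).

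At ZT20, none of the 8 members was called by edgeR or by DESeq2, and 0 had an unadjusted p under 0.05, against 3.63% of all tested genes called (2.09% higher and 1.54% lower). The median log2 fold change was −0.03 over the members and 0.00 over all genes. Igfbp2 (chromosome 1, 72824503 to 72852474), which encodes a binding protein of IGF1 and IGF2, was at 211, 222 and 242 CPM in wild-type against 228, 151 and 103 in Rev-erbα-/- at ZT20. Rev-erbα-/- replicates 2 and 3 lay below all wild-type libraries and replicate 1 among them. The log2 fold change was −0.48 (SE 0.24, adjusted p = 0.401), and it was −0.82 (adjusted p = 0.0159) without Rev-erbα-/- replicate 1. At ZT8, Igfbp2 was at 205, 225 and 212 CPM in wild-type against 207, 219 and 284 in Rev-erbα-/- (log2 0.14, adjusted p = 0.771).

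The test of whether the genotype effect differs between ZT8 and ZT20 called none of the members with edgeR or with DESeq2, against 5.88% of all genes (3.05% with a higher effect at ZT8 and 2.83% with a lower one). Igf1 and Igfals were the 2 members with an unadjusted p under 0.05. The effect at ZT8 minus that at ZT20 was 0.36 for Igf1 (SE 0.14, adjusted p = 0.156) and 0.40 for Igfals (SE 0.13, adjusted p = 0.0955), so that a difference between the time points was not established for either. For Igfbp2 it was 0.63 (adjusted p = 0.347), and without Rev-erbα-/- ZT20 replicate 1 it was 0.97 (adjusted p = 0.0204). Over the 8 members the median was 0.38, and over all genes 0.00.

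**Figure D2:**
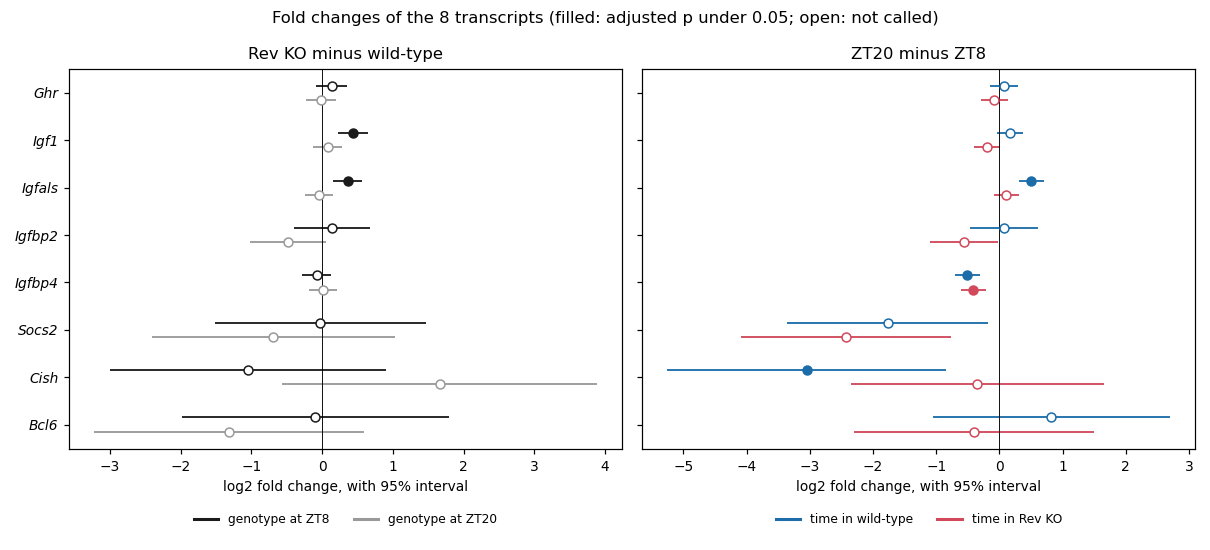
Log2 fold changes of the 8 transcripts (horizontal axes) with 95% intervals, for Rev-erbα-/- minus wild-type at each time on the left and ZT20 minus ZT8 in each genotype on the right. Filled points passed an adjusted p of 0.05 (edgeR): Igf1 and Igfals at ZT8, Igfals, Igfbp4 and Cish between times in wild-type, and Igfbp4 in Rev-erbα-/-.

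Between ZT8 and ZT20, 3 members were called in wild-type liver, where 27.7% of all tested genes were called (13.8% higher and 13.9% lower at ZT20), and 1 in Rev-erbα-/- liver, where 17.5% were (8.79% higher and 8.67% lower). DESeq2 called 4 and 3 members. The members' median log2 change was 0.07 (wild-type) and −0.37 (Rev-erbα-/-), against 0.00 and 0.01 over all genes. The alignments to more than 1 place per counted read also differed between the times, with group medians of 2.89 and 2.32 at ZT8 and 1.67 and 1.32 at ZT20 (wild-type first), and their part in these differences was not tested. Igfals rose in wild-type liver, from 114, 141 and 134 CPM to 201, 165 and 184, without overlap (1.42-fold, log2 0.50, SE 0.09, adjusted p = 0.000964). In Rev-erbα-/- liver, where Igfals was already at 155 to 178 CPM at ZT8, the log2 change was 0.10 (95% interval −0.09 to 0.30, adjusted p = 0.493). The hepatocyte markers moved in the same direction: their summed level was 50515 to 72363 CPM in wild-type at ZT8 and 94588 to 104910 at ZT20. Most of this sum was Alb, at 33751 to 52476 CPM at ZT8 and 70282 to 77215 at ZT20. Of the 7 markers, 4 were called higher at ZT20 and none was at 0, and their part in the change of Igfals was not tested.

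Igfbp4 (chromosome 11, 99041244 to 99054392), which encodes a binding protein that mainly inhibits IGF action, fell in both genotypes from ZT8 to ZT20. Wild-type liver had 1694, 1981 and 2002 CPM at ZT8 and 1337, 1299 and 1354 at ZT20. Rev-erbα-/- liver had 1742, 1765 and 1874 CPM at ZT8 and 1348, 1339 and 1349 at ZT20. No library at ZT20 reached any at ZT8. The log2 changes were −0.51 (SE 0.09, adjusted p = 0.000919) and −0.41 (SE 0.09, adjusted p = 0.00696), and without both acute-phase libraries the wild-type change was −0.35 (adjusted p = 0.0571). The genotypes were close at each time, with log2 fold changes of −0.08 at ZT8 (95% interval −0.28 to 0.12) and 0.02 at ZT20 (−0.18 to 0.22). This gene starts 265.9 kb from Nr1d1. How far sequence of the strain in which the deletion was made reaches around Nr1d1 was not tested. Of the 22 tested genes that start within 500 kb of Nr1d1, 4 were called between genotypes at ZT8, against 8.45% of all tested genes. Mien1 was higher in Rev-erbα-/- (log2 0.43, adjusted p = 0.0124), and Msl1 (−0.22, adjusted p = 0.0457), Wipf2 (−0.36, adjusted p = 0.0188) and Thra (−1.26, adjusted p = 6.17e-05), which overlaps the end of Nr1d1 on the other strand, were lower. Counting ignored strand, so that reads of the shared stretch cannot be told apart. At ZT20 edgeR called none of the 22, against 3.63% of all tested genes. DESeq2 called 1 of them, and 6 had an unadjusted p under 0.05. A linked sequence difference and the loss of REV-ERBα cannot be told apart for genes close to Nr1d1.

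Among wild-type libraries at ZT8, the highest was 15.6 times the lowest for Cish, 12.1 times for Socs2 and 7.92 times for Bcl6, and at ZT20 the ratios were 1.22, 1.34 and 1.09. In Rev-erbα-/- they were 3.65, 1.22 and 5.56 at ZT8 and 3.01, 1.45 and 3.4 at ZT20. Cish (chromosome 9, 107296026 to 107302784), an inhibitor of STAT5 signalling, was at 3.42, 37.3 and 53.3 CPM in wild-type at ZT8 and 4.14, 3.72 and 3.40 at ZT20. Replicate 1 at ZT8 was as low as the ZT20 libraries, and replicates 2 and 3 were the 2 libraries high in Saa1 and Orm2. The fall from ZT8 to ZT20 was called (log2 −3.05, SE 0.96, adjusted p = 0.0465) although the groups overlapped. It was 0.13 (adjusted p = 0.958) without the 2 acute-phase libraries, and of the fits that each left out 1 library, the call held in 2 of 12, without wild-type ZT8 replicate 1 or without Rev-erbα-/- ZT8 replicate 3. The part of the acute-phase libraries' state in this value was not tested.

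In Rev-erbα-/- liver, Cish was at 21.8, 17.7 and 5.97 CPM at ZT8 and 16.9, 13.1 and 5.60 at ZT20. At ZT20 all 3 Rev-erbα-/- libraries lay above all 3 wild-type libraries, with means of 11.8 ± 5.7 and 3.75 ± 0.37 CPM (SD, n = 3). The log2 fold change of 1.66 (SE 0.97, 95% interval −0.56 to 3.88, adjusted p = 0.508) was within the spread that the fit estimates for this gene, and the exact permutation p was 0.1, the smallest that 3 against 3 allow. At ZT8 the log2 fold change was −1.04 (SE 0.85, adjusted p = 0.516), and without the acute-phase libraries it was 2.14 (adjusted p = 0.4).

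Socs2 (chromosome 10, 95385362 to 95417180), which targets the growth hormone receptor for degradation, was at 4.78, 33.8 and 57.9 CPM in wild-type against 35.4, 29.0 and 29.5 in Rev-erbα-/- at ZT8. Again wild-type replicate 1 was low and replicates 2 and 3 were high, while the 3 Rev-erbα-/- libraries were alike. The log2 fold change was −0.03 (SE 0.65, adjusted p = 0.985). Without wild-type replicates 2 and 3, which left 1 wild-type library at ZT8 that is assumed to vary like the other groups, it was 2.71 (adjusted p = 3.68e-05).

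At ZT20, Socs2 was at 7.95, 9.46 and 10.6 CPM in wild-type against 4.49, 6.39 and 6.49 in Rev-erbα-/-. Every Rev-erbα-/- library lay below every wild-type library (log2 −0.69, SE 0.75, adjusted p = 0.771), and the difference was called when only the ZT20 libraries were fitted (−0.69, adjusted p = 0.0422). From ZT8 to ZT20, Rev-erbα-/- liver went from 29.0 to 35.4 CPM down to 4.49 to 6.49, without overlap (log2 −2.43, SE 0.72, adjusted p = 0.0532). This missed the threshold in edgeR over all 12 libraries. It passed in DESeq2 (adjusted p = 0.00275), with only the Rev-erbα-/- libraries fitted (1.03e-05), and without wild-type ZT8 replicate 1 (5.6e-05) or 3 (0.0341). In wild-type liver the change was −1.77 (SE 0.69, adjusted p = 0.0966). It was called in DESeq2 (−1.78, adjusted p = 0.0315) and in edgeR without wild-type ZT8 replicate 1 (−2.30, adjusted p = 4.67e-05), was −1.02 (adjusted p = 0.337) without wild-type ZT8 replicate 3, and turned to 0.96 (adjusted p = 0.0138) without the 2 acute-phase libraries.

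Bcl6 (chromosome 16, 23965052 to 23988852) was at 132, 52.3 and 16.7 CPM in wild-type against 22.0, 44.6 and 122 in Rev-erbα-/- at ZT8. Both groups spanned most of the range over the 12 libraries. At ZT20 the wild-type libraries were close together at 115, 117 and 125 CPM, and Rev-erbα-/- had 74.8, 46.6 and 22.0, all below them. The log2 fold change at ZT20 was −1.31 (SE 0.83, 95% interval −3.22 to 0.59, adjusted p = 0.548), and that at ZT8 was −0.10 (SE 0.82, adjusted p = 0.96). In both ZT8 groups the order of the libraries by Bcl6 was the reverse of that by Cish. It was also the reverse in wild-type at ZT20, where both genes spanned a narrow range, and in Rev-erbα-/- at ZT20 both genes had the same order. With 3 libraries a group, these orders are a description.

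**Figure D3:**
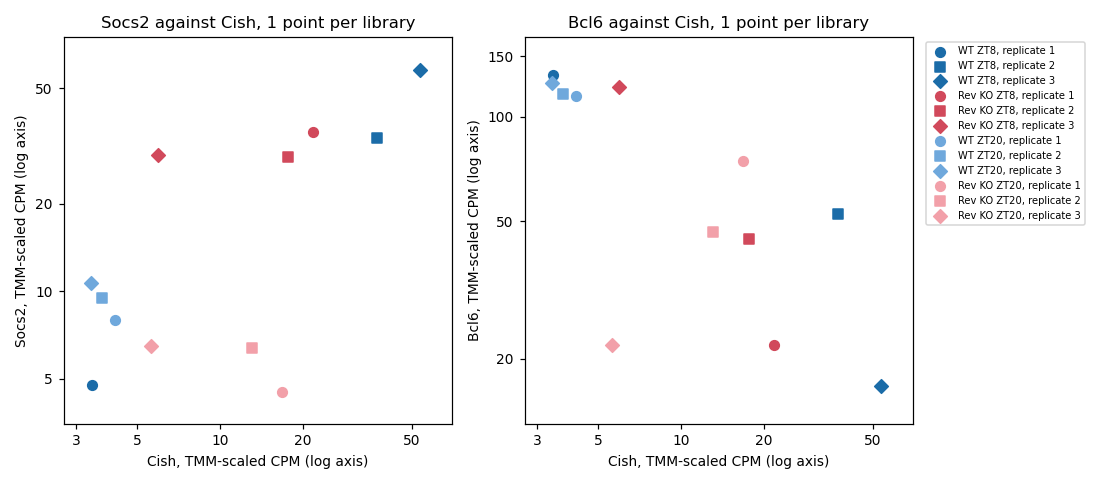
Socs2 (left) and Bcl6 (right) against Cish, each in TMM-scaled CPM on log axes, with 1 point per library, colours for the 4 groups and shapes for replicates 1 to 3. Wild-type ZT8 replicate 1 lies with the wild-type ZT20 libraries at low Cish and high Bcl6, and replicates 2 and 3 lie at the highest Cish.

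Of 37 other genes of growth hormone and IGF signalling, 33 were tested, and Pappa, Pappa2, Stc1 and Stc2 had too few reads. At ZT8, 3 of the 33 were called, all higher in Rev-erbα-/-, against 4.4% of all tested genes called higher and 8.45% in either direction. At ZT20, where 3.63% of all genes were called, 1 was higher and 2 were lower, a count that fell to 0 without wild-type ZT20 replicate 3 or Rev-erbα-/- ZT20 replicate 2 and to 1 without wild-type ZT20 replicate 1 or 2. The median log2 fold change over the 33 was 0.01 at ZT8 and −0.04 at ZT20. Prlr, the prolactin receptor and a relative of GHR, was at 76.9, 97.9 and 118 CPM in wild-type against 157, 143 and 137 in Rev-erbα-/- at ZT8, without overlap (1.49-fold, log2 0.58, SE 0.12, adjusted p = 0.00819). It was called in all 12 fits that each left out 1 library. With only the ZT8 libraries fitted it was not called. Grb10, an adaptor that inhibits insulin and IGF1 receptors, was at 4.93, 6.13 and 5.24 CPM in wild-type against 10.4, 9.56 and 7.98 in Rev-erbα-/- (1.71-fold, adjusted p = 0.013). Its call was lost without Rev-erbα-/- ZT8 replicate 1 or 2, and without the acute-phase libraries (0.91, adjusted p = 0.0986).

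Stat5a and Stat5b, which transmit the growth hormone signal, were both lower in Rev-erbα-/- liver at ZT20, and Stat5a was higher at ZT8. Whether sequence linked to Nr1d1 reaches either gene, neither of which was among those within 500 kb, was not tested. Stat5a was at 9.79, 10.7 and 12.0 CPM in wild-type against 15.6, 17.6 and 20.7 in Rev-erbα-/- at ZT8. At ZT20 it was at 20.98, 19.46 and 20.67 CPM in wild-type against 12.76, 15.04 and 15.74 in Rev-erbα-/-. The groups did not overlap at either time, with log2 fold changes of 0.73 (SE 0.12, adjusted p = 0.00125) and −0.49 (SE 0.11, adjusted p = 0.0261). The effect at ZT8 minus that at ZT20 was 1.22 (SE 0.16, adjusted p = 0.000349), and it was called in all 12 fits that each left out 1 library and without the acute-phase libraries (1.36, adjusted p = 0.00184). The call at ZT20 alone held in 7 of these 12 fits and was lost without any of the 3 wild-type ZT20 replicates and without Rev-erbα-/- ZT20 replicate 1 or 2.

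Stat5b, the main STAT5 of liver, was at 61.2, 65.1 and 69.0 CPM in wild-type against 77.1, 72.4 and 73.0 in Rev-erbα-/- at ZT8 (log2 0.19, adjusted p = 0.137). At ZT20 it was at 76.6, 82.9 and 89.0 CPM in wild-type against 68.6, 68.1 and 62.1 in Rev-erbα-/- (log2 −0.32, SE 0.07, adjusted p = 0.0249), a call lost without replicate 2 or 3 of either ZT20 group. The difference between the effects was 0.51 (SE 0.10, adjusted p = 0.00882) and was called in all 12 of those fits. In wild-type liver both genes rose from ZT8 to ZT20, Stat5a by 0.92 (adjusted p = 3.77e-05) and Stat5b by 0.35 (adjusted p = 0.00267) on the log2 scale. In Rev-erbα-/- liver the values were −0.31 (adjusted p = 0.0806) and −0.16 (adjusted p = 0.154).

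Igfbp5, which encodes a further IGF binding protein, was at 11.8, 7.77 and 8.74 CPM in wild-type against 7.79, 10.1 and 7.98 in Rev-erbα-/- at ZT8, and at 8.79, 12.8 and 10.8 against 16.2, 17.4 and 21.5 at ZT20. Rev-erbα-/- was the higher genotype at ZT20, without overlap (1.70-fold, adjusted p = 0.0245), a call lost without wild-type ZT20 replicate 1 or 3 and without Rev-erbα-/- ZT20 replicate 2 or 3. The interaction of genotype and time called 4 of the 33 genes, against 5.88% of all tested genes. These were Stat5a, Stat5b, Prlr (0.76, adjusted p = 0.0158) and Igfbp5 (−0.91, adjusted p = 0.0483). For Igfbp5 the call held in 4 of the 12 fits, without Rev-erbα-/- ZT20 replicate 1 or without replicate 2 of wild-type ZT8, Rev-erbα-/- ZT8 or wild-type ZT20.

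**Figure D4:**
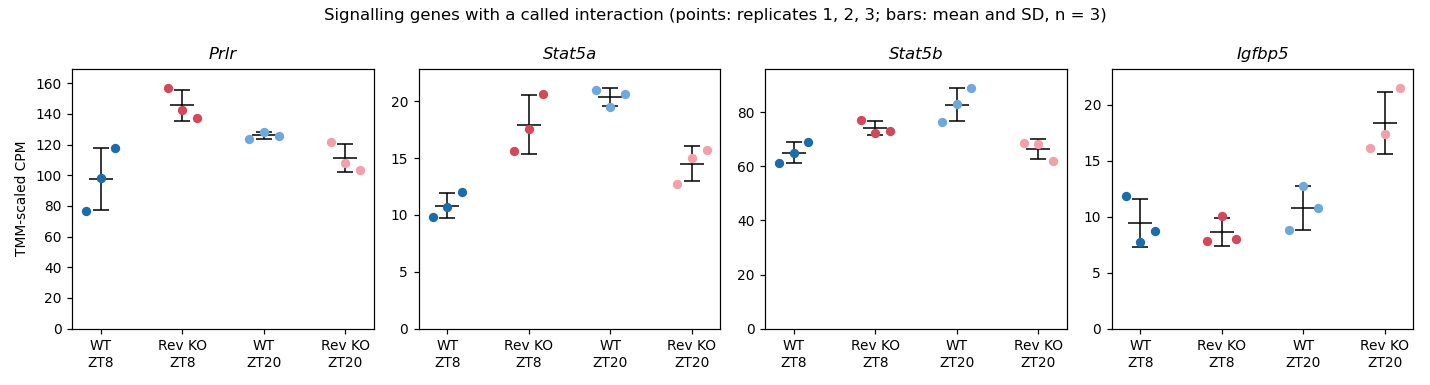
TMM-scaled CPM (vertical axes, from 0) of the 4 signalling genes whose genotype effect differed between ZT8 and ZT20. Points are replicates 1 to 3 from left to right, bars are mean and SD (n = 3); Stat5a in Rev-erbα-/- lies above wild-type at ZT8 and below it at ZT20.

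Between times, 9 of the 33 signalling genes were called in wild-type (4 higher and 5 lower at ZT20) and 7 in Rev-erbα-/- (4 higher and 3 lower), against 27.7% and 17.5% of all tested genes. Insr, the insulin receptor, fell in wild-type from 217, 225 and 261 CPM to 139, 153 and 173 (log2 −0.60, adjusted p = 0.000262). Socs3, an inhibitor that cytokines induce, was at 7.96, 23.3 and 29.8 CPM in wild-type at ZT8, high in the same replicates 2 and 3 as Cish and Socs2, and at 5.40 to 6.72 at ZT20. Its log2 change of −1.72 was called (adjusted p = 0.0414), and it was −0.38 (adjusted p = 0.736) without these 2 libraries and was called in 3 of 12 fits that left out 1. Socs7 fell in both genotypes (−0.38, adjusted p = 0.00319 in wild-type, and −0.30, adjusted p = 0.0216 in Rev-erbα-/-), with the wild-type call lost without the acute-phase libraries (−0.31, adjusted p = 0.121) and the other without Rev-erbα-/- ZT8 replicate 2 or ZT20 replicate 1. Ptpn6, a phosphatase that acts on JAK2, rose in both (0.34, adjusted p = 0.0178, and 0.35, adjusted p = 0.0225). Its wild-type call was lost without the acute-phase libraries (adjusted p = 0.114) and without wild-type ZT8 replicate 1 or 3 or ZT20 replicate 3, and its Rev-erbα-/- call without Rev-erbα-/- ZT8 replicate 2 or 3 or ZT20 replicate 1 or 3. Igfbp7 fell in Rev-erbα-/- (−0.34, adjusted p = 0.0115), a call lost without Rev-erbα-/- ZT20 replicate 3 (adjusted p = 0.0518). Sh2b1, an adaptor that binds JAK2, fell in wild-type (−0.27, adjusted p = 0.0301), a call lost without the acute-phase libraries (−0.17, adjusted p = 0.453) and without wild-type ZT8 replicate 2 or 3 or ZT20 replicate 1 or 2.

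In rodents the pulses of growth hormone set the sex-biased genes of liver, of which 14 male-biased and 16 female-biased genes were listed. At ZT8, 4 of the 14 male-biased genes were higher and 1 was lower in Rev-erbα-/-, and at ZT20, 3 were higher, against 4.4% of all tested genes higher and 4.04% lower at ZT8 and 2.09% higher at ZT20. Both lists together, with 14 male-biased and 6 female-biased genes tested, had 6 calls at ZT8, against 8.45% of all tested genes in either direction. This count was 3 without wild-type replicate 2 and 2 without Rev-erbα-/- replicate 1 or 2. Elovl3, a fatty acid elongase, was at 79.1, 63.8 and 49.9 CPM in wild-type against 216, 275 and 289 in Rev-erbα-/- at ZT8 (4.04-fold, log2 2.02, adjusted p = 5.66e-05). Cyp7b1, an oxysterol hydroxylase, was at 482, 444 and 440 CPM in wild-type against 879, 678 and 735 in Rev-erbα-/- at ZT20 (1.68-fold, log2 0.75, adjusted p = 0.00275). Ugt2b1, a glucuronosyltransferase, was at 838, 791 and 761 CPM in wild-type against 1343, 1191 and 1082 in Rev-erbα-/- at ZT8 (1.51-fold, adjusted p = 0.00751, and 0.186 without the acute-phase libraries). Mup20 was at 83.1, 97.1 and 111 CPM in wild-type against 641, 730 and 803 in Rev-erbα-/- at ZT20 (log2 2.90, adjusted p = 1.25e-09) and was lower at ZT8 (−0.45, adjusted p = 0.028), where the call was lost without wild-type replicate 2, without Rev-erbα-/- replicate 1 or 2, and without the acute-phase libraries (adjusted p = 0.255). The Mup genes have near-identical copies, so that the split of reads between copies is uncertain.

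Of the 16 female-biased genes, 6 had enough reads to be tested, and Cyp3a41b and Sult3a1 had no read in any library. At each time 1 of the 6 was called lower in Rev-erbα-/-, against 4.04% of all tested genes lower at ZT8 and 1.54% at ZT20. Acot3, an acyl-CoA thioesterase, was lower in Rev-erbα-/- at ZT8, with 4.89, 3.19 and 1.88 CPM in wild-type against 0.312, 0.389 and 0.441 (log2 −3.12, adjusted p = 0.0153), a call lost without Rev-erbα-/- ZT8 replicate 1 or 2. Cyp2a4 was at 109, 71.7 and 28.5 CPM in wild-type against 2.27, 0.506 and 0.534 in Rev-erbα-/- at ZT20 (log2 −5.98, adjusted p = 0.00151), and it has a close copy in the genome that makes its reads uncertain.

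For each member called in any comparison, the tested genes with the closest course over the 12 libraries were found by the root mean square difference of log2 CPM, each gene centred on its own mean. For Igf1, whose own deviation by this measure was 0.175, these were Slmo2 (0.0532), Dram2 (0.0765) and Rps6kb1 (0.0766). For Igfals (0.222) they were 1700052N19Rik (0.0722) and Tssc4 (0.0858). For Igfbp4 (0.239) they were Myo9b (0.0502), Tgds (0.0583) and Klhl2 (0.0633). For Cish (1.35) they were Gbp11 (0.512), Gm11341 (0.658) and Plk3 (0.685). These differences are not scaled by a member's own deviation, which was largest for Cish, so their sizes are not comparable between members. No other member was among these genes.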

How the data were processed

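Poly(A) RNA was sequenced (75 bp) and mapped to mm10 with TopHat, and the authors deposited raw counts per gene symbol from HTSeq (union mode, minimum mapping quality 10, strand ignored), without normalization. The 5 summary lines of each table were left out. Counts were filtered with filterByExpr, scaled by TMM and fitted with edgeR 4.0.16 (robust quasi-likelihood, R 4.3.3) as 4 group means over 12 libraries, with Benjamini-Hochberg adjustment over 14488 genes and a threshold of 0.05. DESeq2 1.42.0 was an alternative. Counts of 12 libraries were simulated with the mean over all samples in every group, and genes were changed in Rev-erbα-/- at ZT8 only. Comparing genotypes at ZT8 in these counts (14293 genes) called 86 of 100 genes changed 3-fold and 48 of 100 changed 1.5-fold, with 3 false calls. Changes below 1.5-fold, such as those of Igf1 and Igfals, were not simulated. Positions come from GENCODE M21. The members and lists were chosen with earlier results of these data known. Named were all 8 members, signalling genes called between genotypes (up to 10) or only between times (up to 6), up to 4 called genes of each sex-biased list, called neighbours of Nr1d1, 3 nearest courses for each called member (1 gene is not reported here), and Nr1d1, Arntl, Saa1 and Orm2 as checks. Leave-one-out fits, the fit of only the compared libraries, other scalings and filters and a replicate block were further alternatives. Chi-square per gene between replicates was 7.81 to 146, so no library was a duplicate.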

Additional observations from a re-analysis of the deposited data

Results flagged for a closer look

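In 8 genes of the signalling and sex-biased lists, and in no member, the genotype effect at ZT8 differed from that at ZT20 by the interaction test of edgeR. Tested were 33 signalling, 14 male-biased and 6 female-biased genes, and 5.88% of all tested genes were called. The effect at ZT8 minus that at ZT20, on the log2 scale, was 0.76 for Prlr, 1.22 for Stat5a and 0.51 for Stat5b. It was −0.91 for Igfbp5. Among male-biased genes it was 1.72 for Elovl3 (adjusted p = 0.00223), 0.62 for Ugt2b1 (adjusted p = 0.0487) and −3.36 for Mup20 (adjusted p = 9.91e-09). For the female-biased gene Cyp2a4 it was 6.64 (adjusted p = 0.0247). With 1 library left out at a time, Ugt2b1 passed the threshold 3 times and Cyp2a4 6 times out of 12. Without the 2 wild-type ZT8 libraries high in acute-phase genes, Ugt2b1 was at 0.54 (adjusted p = 0.243) and Cyp2a4 at 6.48 (adjusted p = 0.157). Of the cell type markers, the same test called Hnf4a (0.50, adjusted p = 0.0415), 1 of 7 hepatocyte markers. It also called Marco (−4.43, adjusted p = 0.0293), 1 of 5 Kupffer cell markers, and Reln (−0.54, adjusted p = 0.044), 1 of 5 stellate cell markers. Called or not, the value was above 0 for 5 hepatocyte markers and below it for 2. It was below 0 for all 5 Kupffer cell markers, and above 0 for 1 stellate cell marker and below it for 4.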

How the results depend on the processing

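Of the values of single members under other settings, 647 kept direction and side of the threshold, 29 turned direction, 22 lost the call and 14 gained it, and the cause was not tested. Members called at ZT8 numbered 0 with only the compared libraries fitted and 1 to 2 with 1 library left out. At ZT20 they numbered 1 with only the compared libraries, 1 without the 2 acute-phase libraries (an alternative chosen after seeing the data) and 0 to 1 with 1 left out. The interaction, which needs all groups, gave 1 without the acute-phase libraries and 0 to 1 with 1 left out. Between times in Rev-erbα-/- they numbered 3 with DESeq2, 2 with only the compared libraries, 2 without the acute-phase libraries and 1 to 2 with 1 left out.

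Signalling genes called between times in wild-type numbered 5 without the acute-phase libraries. With 1 library left out, those called at ZT20 numbered 0 to 3, those between times in Rev-erbα-/- 4 (without Rev-erbα-/- ZT8 replicate 2) to 8, and sex-biased genes at ZT8 2 to 7.

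Without the acute-phase libraries, these log2 values turned direction: at ZT8 Ghr −0.0583, Igfbp4 0.0787, Socs2 2.7068 and Cish 2.1371, in the interaction Ghr −0.0484, Igfbp4 0.0583 and Cish 0.472, and between times in wild-type Ghr −0.127, Socs2 0.9643, Cish 0.1257 and Bcl6 −0.156. Of these, both Socs2 values passed the threshold.

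With 1 library left out, direction turned within these ranges. At ZT8 they were −0.0069 to 0.23 for Igfbp2, −0.5547 to 0.7173 for Socs2 and −1.0185 to 0.8659 for Bcl6. At ZT20 they were −0.0438 to 0.0076 for Ghr, −0.1094 to 0.0324 for Igfals and −0.0009 to 0.0363 for Igfbp4. Between times they were −0.0011 to 0.1642 for Ghr in wild-type, and in Rev-erbα-/- −0.1301 to 0.0002 for Ghr, −0.7361 to 0.0173 for Cish and −0.8736 to 0.5267 for Bcl6. None of the values so turned passed the threshold.

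Libraries of the same replicate number were not more alike across groups. Deviations from the group means correlated by −0.0144 on average for the same number (−0.0832 to 0.0738 over 18 pairs) and 0.00712 for other numbers. Centring on groups of 3 ties these 2 averages to each other, and whether libraries of the same number were handled together was not tested. With the replicate number as a block, members called numbered 2 at ZT8, 0 at ZT20, 0 in the interaction, 2 between times in wild-type (Cish lost its call, adjusted p = 0.095, edgeR) and 1 in Rev-erbα-/-, and the log2 fold changes at ZT8 of Socs2 (0.2482) and Bcl6 (0.1379) turned direction. Of the signalling genes, Igfbp5 lost its calls at ZT20 and in the interaction under the block, Prlr those between times in both genotypes, and Socs3 that between times in wild-type.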
